A study of Rattus norvegicus with 20 samples.

Results

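The genes described here are Atf4 and 9 genes that act with it or under it in the integrated stress response, which are Atf3, Atf5, Ddit3, Trib3, Chac1, Asns, Psat1, Ddit4 and Sesn2. They were chosen by symbol, are 10 of the 32402 Ensembl genes of the rat tables, and each symbol stands for a single row. The tissue was the supraoptic nucleus (SON) of the hypothalamus, taken as bilateral punches from 20 male Wistar Han rats and sequenced as poly(A) RNA. There were 5 adult rats aged 3 months and 5 aged rats of 18 months with free access to water, called euhydrated (EH), and 5 adult and 5 aged rats that were dehydrated (DH), for 2 days according to the labels, although the study's methods give a longer period. A punch holds the neurones of the SON together with its glia and vessels and some of the tissue next to it, so in these bulk samples fewer cells of a type and less RNA per cell cannot be told apart.

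The integrated stress response begins when kinases that sense unfolded protein, missing amino acids, viral RNA or haem shortage phosphorylate the initiation factor eIF2. General translation then slows, while the mRNA of Atf4 is translated more, because upstream reading frames otherwise keep ribosomes from its coding sequence. The ATF4 protein is a basic leucine zipper (bZIP) transcription factor that pairs with C/EBP proteins and drives genes for amino acid synthesis and transport, for charging tRNAs and for shutting the response down again. Magnocellular neurones of the SON make large amounts of vasopressin and oxytocin precursors in the endoplasmic reticulum (ER), and loss of water raises the demand for these hormones. RNA levels, as measured here, do not show ATF4 protein or the phosphorylation of eIF2.

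ATF4 and its partners bind a composite C/EBP-ATF element, and the letters TGATGNAA were searched on both strands of RefSeq promoters of assembly GRCr8, each of 300 bases, to show where such an element lies in these genes. Promoters were at hand for 9 of the 10 genes, Atf3 being the exception, and 2 of the 9, those of Chac1 and Trib3, held the letters, against 3.98% of all 33469 promoters in the table. The 250 bases before each start are printed 5′ to 3′ on the strand of the gene, with the match in capitals, which in both genes lies on the opposite strand. The Chac1 window is chr3:126795881-126796130 on the plus strand, and the match begins 167 bases before the start. The Trib3 window is chr3:161275534-161275783 on the minus strand, and the match begins 21 bases before the start. A match is only a description of the letters, and binding was not measured. Only 250 bases before and 50 bases after each start were searched, for these exact letters. A gene without a match may therefore hold an element elsewhere or in other letters.
Chac1: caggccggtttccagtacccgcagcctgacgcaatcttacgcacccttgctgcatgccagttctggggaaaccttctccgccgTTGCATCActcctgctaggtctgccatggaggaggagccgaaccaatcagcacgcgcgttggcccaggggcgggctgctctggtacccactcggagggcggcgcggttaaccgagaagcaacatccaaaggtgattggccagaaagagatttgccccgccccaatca
Trib3: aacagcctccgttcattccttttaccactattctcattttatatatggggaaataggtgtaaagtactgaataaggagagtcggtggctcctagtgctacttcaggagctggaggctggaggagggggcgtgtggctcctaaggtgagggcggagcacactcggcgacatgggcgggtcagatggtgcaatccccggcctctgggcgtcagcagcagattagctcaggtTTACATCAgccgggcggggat

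Each library held between 24268398 and 30348118 reads on genes. The values are counts divided by a size factor, which was estimated within each of 3 tables of 10 libraries, and they are called normalized counts below. Where aged EH and adult EH rats were scaled together, Avp, the gene for vasopressin, averaged 208102 ± 50116 and 170733 ± 33907 normalized counts (SD, n = 5). For Oxt, the gene for oxytocin, the means were 99877 ± 11106 and 83045 ± 6987 (SD, n = 5). The defining genes of the SON were thus present in both ages. By the study's methods, a single researcher punched the SON and isolated the RNA of both ages together, and the sequencing company handled the RNA of both ages at once. The paper's results, however, describe the adult rats as sequenced and published earlier. A single rat stood apart in Atf4, which was aged EH rat 4 at 7822 normalized counts where the other 4 aged EH rats lay between 5967 and 6229. This rat also had the highest summed level of 8 magnocellular markers in its group (390693, against 272966 to 382517 in the others) and the lowest summed level of 6 blood markers (22459, against 39657 to 56676). For those of the 10 genes that were called, the fits that include its group are therefore also given without it.

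Atf4 itself was higher after DH at both ages and higher in aged than in adult EH rats. In adult EH rats 1, 2, 4, 5 and 6 it stood at 5246, 4960, 4897, 5433 and 5153 normalized counts, and in adult DH rats 1 to 5 at 7311, 7101, 7624, 7276 and 7499. All adult DH rats were above all adult EH rats, and the mean was 43.3% higher. In aged EH rats 1, 2, 4, 5 and 6 it was 6170, 6164, 7822, 6229 and 5967, and in aged DH rats 1, 2, 3, 5 and 6 it was 8588, 8423, 9076, 9314 and 8056. The lowest aged DH rat was above aged EH rat 4, so the groups did not overlap here either, and the mean was 34.3% higher. Differential expression was tested with limma on log2 of the normalized count plus 1, over all genes with a mean of at least 10, two-sided, with Benjamini-Hochberg adjustment and a threshold of 0.05. The log2 fold change (LFC) of Atf4 was 0.52 (SE 0.033, limma adjusted p = 4.87e-07) in adult DH and 0.43 (SE 0.066, limma adjusted p = 0.00177) in aged DH. With aged EH rat 4 left out the LFC in aged DH was 0.50 (limma adjusted p = 4.09e-05). In ageing, the comparison of aged EH with adult EH, the means were 6483 ± 754 and 5356 ± 226 (SD, n = 5) in the table of that comparison, and the LFC was 0.27 (SE 0.062, limma adjusted p = 0.0215). The 5 aged rats were all above the 5 adult rats. The LFC was 0.20 without aged EH rat 4 (limma adjusted p = 0.00713), and the call was lost without adult EH rat 2 or 4, where the adjusted p reached 0.051.

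**Figure D1:**
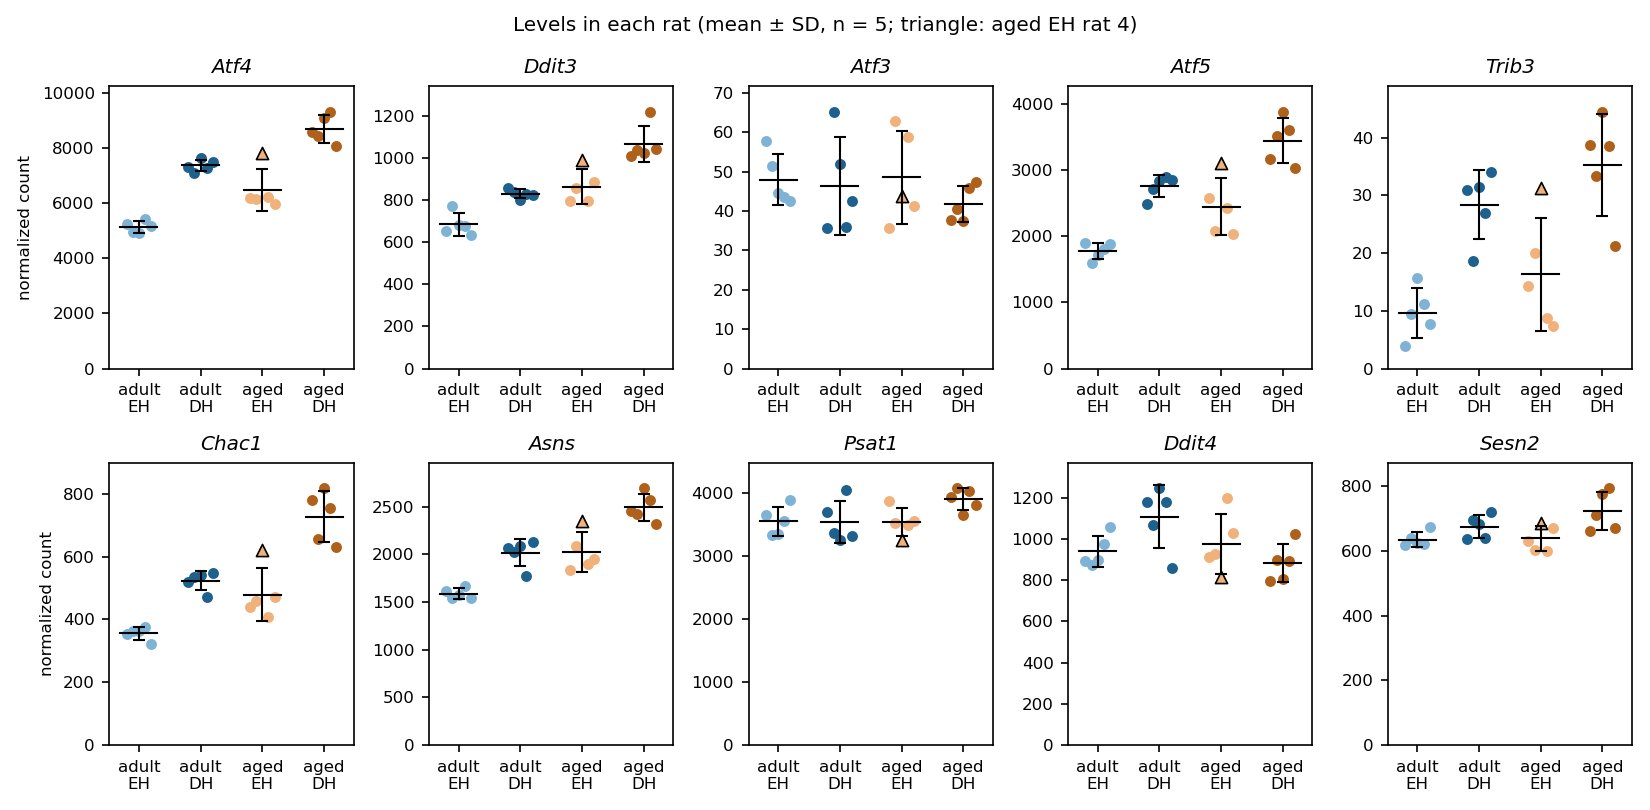
Normalized counts of the 10 genes in every rat (points, each y axis from 0), by group, with the mean and SD of 5 rats in black and aged EH rat 4 as a triangle; adult rats come from the adult DH table and aged rats from the aged DH table. Atf4 lies between 4897 and 5433 in adult EH and between 8056 and 9314 in aged DH, whereas the 4 groups overlap in Atf3 and Psat1. Adult and aged values were scaled separately here. With all 20 libraries scaled together, Atf4 lay between 4987 and 5535 in adult EH and between 7884 and 9139 in aged DH.

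Among the 10 genes, 6 were called higher in adult DH and none lower, where 7.67% of 15280 genes tested were called higher. The same 6, which were Atf4, Atf5, Ddit3, Trib3, Chac1 and Asns, were called higher in aged DH, where 4.05% of 15346 genes were. In ageing 5 were called higher, all of those but Trib3, where 2.69% of 15369 genes were called higher, and none was called lower. The DH groups of adult rats did not overlap and lay higher for 6 of the 10 genes, against 6.81% of all genes tested. In aged rats 3 genes had such a separation (Atf4, Chac1 and Ddit3), against 4.12%, and in ageing 4 (Atf4, Atf5, Asns and Chac1), against 2.95%. The median LFC of the 10 genes was 0.31 in adult DH, 0.31 in aged DH and 0.27 in ageing, while the median over all genes tested was -0.0073, -0.0030 and 0.00033. Without aged EH rat 4, 6 genes were called in aged DH and 3 in ageing. In adult DH, Trib3 reached the mean of 10 needed for the test only through its DH level. The ageing comparison shares its adult EH rats with adult DH and its aged EH rats with aged DH, so the values of the comparisons are set side by side and not counted as separate evidence.

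**Figure D2:**
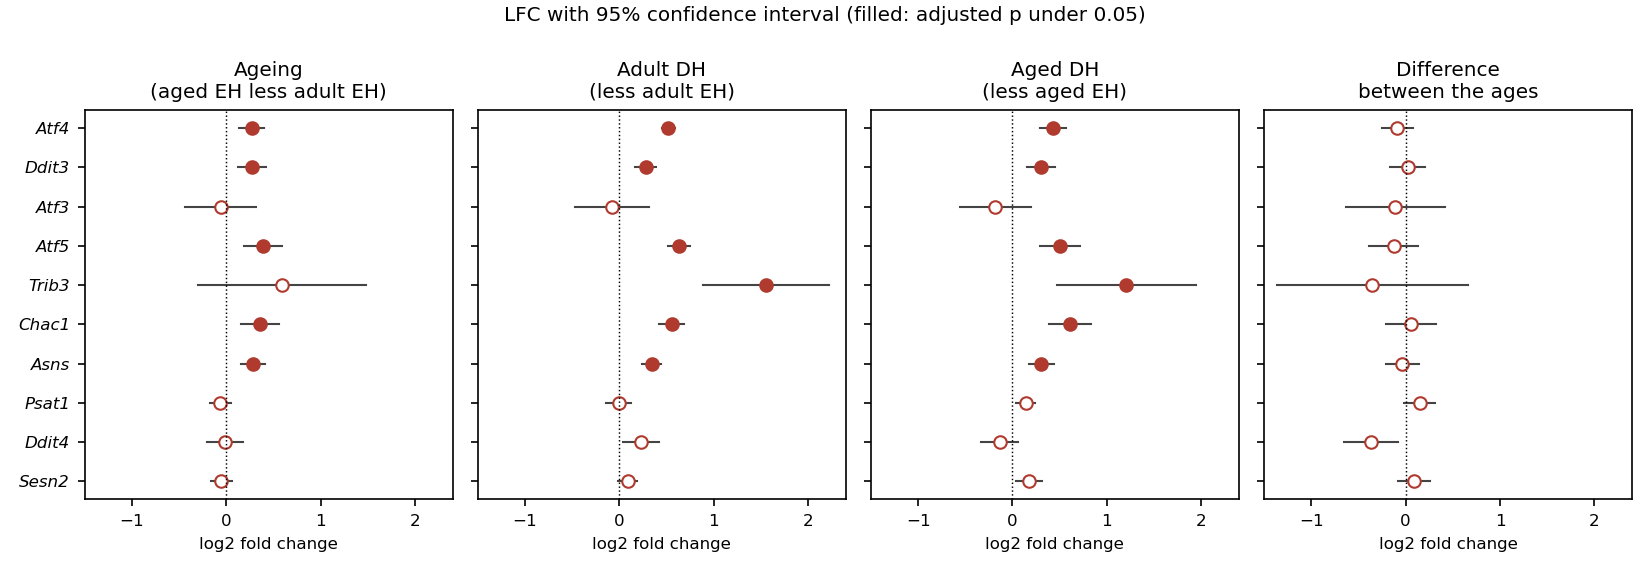
LFC (x axis, log2 scale) with its 95% confidence interval for each of the 10 genes in the 3 comparisons and in the difference between the ages, which is the LFC of aged DH less that of adult DH; filled points have a limma adjusted p under 0.05. Filled points lie to the right of 0 in the first 3 panels, at most 1.56 for Trib3 in adult DH, and there is none in the last panel.

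Ddit3 encodes CHOP, a bZIP factor that ATF4 induces and that is known for promoting death under lasting ER stress. In adult EH rats it stood at 656, 775, 681, 679 and 637 normalized counts, and in adult DH rats at 859, 840, 800, 831 and 827. The adult groups did not overlap, although adult EH rat 2 came near. In aged EH rats it stood at 796, 859, 992, 796 and 885, and in aged DH rats at 1010, 1041, 1026, 1221 and 1042. Aged EH rat 4 was again the highest of its group, close below the lowest aged DH rat. The LFC was 0.28 (SE 0.052, limma adjusted p = 0.00322) in adult DH, 0.30 (SE 0.068, limma adjusted p = 0.0147) in aged DH and 0.28 (SE 0.068, limma adjusted p = 0.0310) in ageing. Leaving out aged EH rat 4 gave 0.35 in aged DH and 0.23 in ageing. The ageing call was lost without any of aged EH rats 2, 4 or 6 or adult EH rats 1, 4, 5 or 6, and the LFC then remained between 0.23 and 0.32.

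Atf5 encodes another bZIP factor, whose mRNA is, like that of Atf4, translated when eIF2 is phosphorylated. Its levels were 1898, 1599, 1719, 1817 and 1880 normalized counts in adult EH rats and 2484, 2724, 2843, 2895 and 2853 in adult DH rats. These groups were well apart, with a mean 54.8% higher in DH. In aged EH rats its levels were 2588, 2090, 3113, 2439 and 2034, and in aged DH rats 3172, 3527, 3890, 3611 and 3044. Aged DH rat 6 fell below aged EH rat 4, and the other 4 aged DH rats were above all aged EH rats. The LFC was 0.63 (SE 0.053, limma adjusted p = 5.24e-06) in adult DH and 0.50 (SE 0.10, limma adjusted p = 0.00784) in aged DH, or 0.59 in aged DH without aged EH rat 4. In ageing it was 0.39 (SE 0.095, limma adjusted p = 0.0295), and 0.30 without aged EH rat 4 (limma adjusted p = 0.0385). The ageing call was lost without aged EH rat 1 or 5 or adult EH rat 2, 4 or 5.

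Atf3, an immediate early bZIP factor that also responds to nerve injury, stood at low levels, between 35.8 and 65.3 normalized counts over the 20 rats. The groups overlapped in each comparison. Its LFC was -0.08 (SE 0.18) in adult DH, -0.18 (SE 0.18) in aged DH and -0.06 (SE 0.18) in ageing, with limma adjusted p of 0.836, 0.613 and 0.901. The 95% confidence intervals of these LFCs were -0.47 to 0.31, -0.56 to 0.19 and -0.44 to 0.32, so an increase of the size seen in Atf4 was within the interval only in ageing.

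Trib3 encodes a pseudokinase that is induced by ATF4 and CHOP and holds back both ATF4 and AKT. It was at most 44.5 normalized counts in any rat, and its LFC was the largest of the 10 genes in each of the 3 comparisons. In adult EH rats the values were 3.85, 9.52, 15.8, 11.1 and 7.72, and in adult DH rats 31.0, 18.6, 31.4, 26.9 and 34.1. Every adult DH rat was above every adult EH rat. The adult EH mean of 9.60 was below the mean of 10 needed for the test. Trib3 passed this limit in adult DH only through its DH mean of 28.4. With no filter on low values it was called in adult DH (limma adjusted p = 0.00659). Aged EH rats had 14.3, 19.99, 31.3, 8.699 and 7.33, and aged DH rats 38.8, 33.3, 44.5, 38.6 and 21.2. Aged DH rat 6 was below aged EH rat 4. The LFC was 1.56 (SE 0.31, limma adjusted p = 0.00521) in adult DH, with an interval from 0.89 to 2.23. The adult call was lost with RNA integrity as a covariate (limma adjusted p = 0.0596) or with the replicate number as a block (0.0543). In aged DH the LFC was 1.21 (SE 0.34, limma adjusted p = 0.0484), a call that was lost without any of aged EH rats 1, 2, 5 or 6 or aged DH rats 1, 2, 3 or 5, with no filter on low values, with RNA integrity as a covariate and in edgeR. When aged EH rat 4 was left out it was 1.47 (limma adjusted p = 0.0105). In ageing the LFC was 0.59 (SE 0.41, limma adjusted p = 0.481), with 2 of 5 aged rats above all adult rats.

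Chac1 encodes an enzyme that breaks down glutathione and is induced through ATF4. Adult EH rats had 355, 363, 364, 377 and 321 normalized counts and adult DH rats 520.5, 536, 540.5, 473 and 547. All DH rats were higher, by 47.0% on the mean. Aged EH rats had 439, 458, 622, 408 and 471, and aged DH rats 779.5, 657, 818, 755 and 630. The groups of aged rats did not overlap, and aged EH rat 4 was the only EH rat near the DH range. The LFC was 0.55 (SE 0.060, limma adjusted p = 4.72e-05) in adult DH and 0.61 (SE 0.10, limma adjusted p = 0.00313) in aged DH, or 0.71 in aged DH without aged EH rat 4. In ageing the LFC was 0.36 (SE 0.096, limma adjusted p = 0.0431). Without aged EH rat 4 it was 0.26 (limma adjusted p = 0.0504), and the call was also lost without aged EH rat 2 or 6, without any adult EH rat, with library totals made equal (0.0549) and with the replicate block (0.0504).

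Asns encodes asparagine synthetase, a well-known target of ATF4 when amino acids run short. Its levels in adult EH rats were 1617, 1537, 1577, 1670 and 1543 normalized counts, and in adult DH rats 2071, 2025, 2087, 1771 and 2134. The adult groups did not overlap, with adult DH rat 4 the nearest to EH. Aged EH rats had 1831, 2086, 2352, 1894 and 1947, and aged DH rats 2455, 2426, 2694, 2573 and 2322. Aged DH rat 6 was below aged EH rat 4. The LFC was 0.34 (SE 0.048, limma adjusted p = 0.000445) in adult DH, 0.31 (SE 0.063, limma adjusted p = 0.00869) in aged DH and 0.29 (SE 0.059, limma adjusted p = 0.0121) in ageing. It was the only one of the 10 genes to keep its call in all 3 comparisons as each rat was left out, and without aged EH rat 4 its LFC was 0.23 in ageing and 0.36 in aged DH.

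Psat1 encodes an enzyme of serine synthesis and differed from Asns. It stood between 3258 and 4041 normalized counts in adult rats and between 3247 and 4072 in aged rats, with overlapping groups. Its LFC was -0.01 (SE 0.060) in adult DH, 0.14 (SE 0.046) in aged DH and -0.06 (SE 0.051) in ageing, and the limma adjusted p values were 0.956, 0.0828 and 0.568. The interval of the adult LFC ran from -0.14 to 0.12, below the LFC of Asns.

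Ddit4 (REDD1) and Sesn2 (sestrin 2) encode stress-induced inhibitors of the growth kinase mTORC1, and both also answer to other factors such as p53 and, for Ddit4, the glucocorticoid receptor. Ddit4 stood at 892, 872, 900, 974 and 1059 normalized counts in adult EH rats and at 1181, 1070, 1247, 1182 and 861 in adult DH rats. Of the DH rats 4 were above all EH rats, and adult DH rat 5 was below them all. In aged EH rats it stood at 913, 928, 816, 1201 and 1027, and in aged DH rats at 798, 898, 807, 893 and 1024, with wide overlap. The LFC was 0.23 (SE 0.089, limma adjusted p = 0.110) in adult DH and -0.14 (SE 0.093, limma adjusted p = 0.437) in aged DH, and without adult DH rat 5 the adult LFC of 0.32 passed the threshold. Sesn2 lay between 600 and 794 normalized counts over the 20 rats, and its LFC was 0.09 (SE 0.049, limma adjusted p = 0.272) in adult DH and 0.18 (SE 0.064, limma adjusted p = 0.117) in aged DH. In ageing neither gene passed the threshold, with LFCs of -0.0090 (SE 0.088) for Ddit4 and -0.05 (SE 0.053) for Sesn2.

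Whether the response to DH differed between the ages was tested over all 20 rats as the LFC of aged DH less that of adult DH. No gene of the 15326 tested by limma was called, and none by edgeR on reads recovered from the tables. Ddit4 alone of the 10 genes had an unadjusted p under 0.05, against 9.93% of all genes tested. Its difference was -0.37 (SE 0.14, limma adjusted p = 0.389), with an interval from -0.66 to -0.08. For Atf4 the difference was -0.09 (SE 0.079, limma adjusted p = 0.769), with an interval from -0.25 to 0.08. The intervals of Asns, from -0.21 to 0.14, and of Ddit3, from -0.16 to 0.21, were of similar width, whereas that of Trib3 ran from -1.36 to 0.66. Without aged EH rat 4 the difference was -0.018 for Atf4, -0.037 for Atf5, -0.082 for Trib3, 0.15 for Chac1, 0.020 for Asns, 0.074 for Ddit3 and -0.43 for Ddit4, and the lowest limma adjusted p of the 10 genes was 0.302. A p that misses the threshold does not show that the responses were alike.

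With the reads of all 20 libraries scaled together, the order of the group means was adult EH, aged EH, adult DH and aged DH for Atf4, Atf5, Asns, Trib3 and Chac1. Atf4 averaged 5232 ± 224 (SD, n = 5) normalized counts on this scale in adult EH, 6345 ± 734 in aged EH, 7496 ± 199 in adult DH and 8525 ± 500 in aged DH. For the 10 genes 30 pairs of neighbours in the order were compared by a two-sided exact permutation test of log2 values, where 5 rats against 5 cannot give a p below 0.00794. Aged EH and adult DH overlapped in all 5 genes, with exact p of 0.0397 for Atf4, 0.0952 for Atf5, 0.492 for Asns, 0.0476 for Trib3 and 0.119 for Chac1. For Atf4 the overlap came from aged EH rat 4 alone, at 7648 on this scale where the lowest adult DH rat had 7243. Without that rat, a comparison added after seeing the data, the 4 aged EH rats did not overlap with adult DH for Atf4 (exact p = 0.00794) and Chac1 (exact p = 0.0159), and they overlapped for Atf5 (exact p = 0.0238), Asns (0.119) and Trib3 (0.0238). Adult DH and aged DH did not overlap for Atf4, Atf5, Asns and Chac1, each at the smallest p of 0.00794, and overlapped for Trib3 (exact p = 0.341). In Ddit3 the order of adult DH and aged EH was the other way round, with nearly equal means of 847 ± 22.2 and 849 ± 78.5 (SD, n = 5, exact p = 1), and without aged EH rat 4 the aged EH mean was 818 (exact p = 0.246). For Atf3, Ddit4, Psat1 and Sesn2 all neighbours overlapped. The pairs were set by the order of these same means, and the exact p values were not adjusted. The share of all genes without overlap was not computed for these pairs, so how unusual these separations are is not known.

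The other genes of the pathway were taken from 9 lists. Upstream of Atf4, none of the 4 genes for eIF2a kinases was called in any of the 3 comparisons. In ageing the largest LFCs among them were 0.19 (SE 0.061, limma adjusted p = 0.0920) for Eif2ak2, which encodes PKR, and 0.15 (SE 0.050, limma adjusted p = 0.0878) for Eif2ak3, which encodes the ER sensor PERK. Eif2ak2 was called in ageing without aged EH rat 1, with the replicate block and with all 20 libraries scaled together, where Eif2ak3 was called too. In aged DH Eif2ak2 was called, with an LFC below 0, without aged EH rat 1 and with all 20 libraries scaled together. In adult DH Eif2ak1 had -0.09 (SE 0.043) and Eif2ak2 -0.07 (SE 0.048), and in aged DH Eif2ak2 had -0.17 (SE 0.060, limma adjusted p = 0.0979) and Eif2ak4 -0.04 (SE 0.045). Of 8 subunits of eIF2 and of its exchange factor eIF2B, 3 were called in adult DH, namely Eif2b3 (LFC 0.18), Eif2s2 (0.10) and Eif2s3 (-0.09), and none in the other comparisons. That count fell to between 0 and 1 without any of adult EH rats 1, 2, 4 or 5 or adult DH rats 1, 2, 3 or 5. The largest LFCs in ageing were 0.14 for Eif2b3 and -0.11 for Eif2b4, and in aged DH -0.14 for Eif2b2 and 0.13 for Eif2b4, none called. Over all genes, 7.67% were called higher in adult DH and 4.99% lower.

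Part of the feedback arm was higher after DH. Of 6 genes of the eIF2a phosphatase and its regulators, 2 were called higher in adult DH and the same 2 in aged DH. This compares with 7.67% and 4.05% of all genes, and none of the 6 was called lower. Ppp1r15a (GADD34), which brings the phosphatase to eIF2 and is itself an ATF4 target, was higher by 0.41 (SE 0.047) on the log2 scale in adult DH, at a limma adjusted p of 7.23e-05, and by 0.33 (SE 0.058) in aged DH, at 0.00376. Dnajc3 (p58IPK), an ER co-chaperone that inhibits PERK, had 0.37 (SE 0.068) and 0.29 (SE 0.068), and in aged DH it was not called without aged DH rat 5. In ageing the largest LFCs of the list were 0.20 for Ppp1r15a (SE 0.057, limma adjusted p = 0.0566) and 0.11 for Impact, an inhibitor of the kinase GCN2. Among the bZIP partners of ATF4, 9 of 10 could be tested. Over all genes, 7.67% were called higher in adult DH, 4.05% in aged DH and 2.69% in ageing. Of the 9 partners, 3 were called in adult DH. These were Fos (LFC 1.13, SE 0.20), the immediate early gene of neuronal activity, Cebpb (0.52, SE 0.10) and Cebpg (0.20, SE 0.039). In aged DH only Cebpb was called (LFC 0.48, SE 0.13, limma adjusted p = 0.0395), a call that was lost in 11 of 19 other settings, and in ageing only Cebpg (0.15, SE 0.041, limma adjusted p = 0.0471), lost in 12 of 19.

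Genes for charging tRNAs were higher after DH almost throughout the list. Of 13 genes for aminoacyl-tRNA synthetases and the tRNA exporter Xpot, 12 were called higher in adult DH and 10 in aged DH, against the 7.67% and 4.05% of all genes given above, and none was called lower. All 13 had LFCs above 0 in both. The median LFC was 0.24 in adult DH and 0.23 in aged DH, so the changes were smaller than that of Atf4. Cars, for cysteine, had the largest, with 0.49 (SE 0.041) in adult DH and 0.42 (SE 0.062) in aged DH, followed by Eprs (glutamate and proline) with 0.31 and 0.32 and by Sars1 (serine) with 0.31 in adult DH and Gars (glycine) with 0.30 in aged DH. In ageing all 13 were above 0 as well, with a median of 0.11, but only Iars1 (isoleucine, 0.23, SE 0.053, limma adjusted p = 0.0205) and Eprs (0.15, SE 0.040, limma adjusted p = 0.0423) were called. Over all genes 2.69% were called higher in ageing. Iars1 lost its call only without adult EH rat 5, and Eprs in 10 of 19 other settings, and the count ran from 0 without adult EH rat 5 to 4 without aged EH rat 6 and to 6 with all 20 libraries scaled together.

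Amino acid transporters known as ATF4 targets were called higher for 5 of 10 genes in adult DH and 7 of 10 in aged DH, where 7.67% and 4.05% of all genes were, and none was called lower. The cationic amino acid transporters Slc7a1 and Slc7a3 led, with LFCs of 0.51 (SE 0.061) and 0.42 (SE 0.058) in adult DH and of 0.48 (SE 0.063) and 0.46 (SE 0.078) in aged DH. The neutral amino acid transporter Slc1a4 followed with 0.40 (SE 0.040) and 0.36 (SE 0.054). In ageing 1 gene was called higher and 2 lower, against 2.69% and 3.3% of all genes. Slc7a11, the cystine transporter that supplies glutathione synthesis, averaged 3578 ± 475 normalized counts in the aged EH rats against 5187 ± 864 (SD, n = 5) in the adult EH rats, with an LFC of -0.53 (SE 0.10, limma adjusted p = 0.00932), and it kept its call in all 19 other settings. The groups did not overlap. Slc6a9, a glycine transporter found mainly in glia, had -0.16 (SE 0.037, limma adjusted p = 0.0205), and lost its call without aged EH rat 5 or adult EH rat 1 or 6. Slc1a5, a glutamine transporter, was higher by 0.42 (SE 0.12, limma adjusted p = 0.0484), and its call was lost in 12 of 19 other settings. In the same comparison 2 of 8 astrocyte markers and 6 of 8 oligodendrocyte markers were called lower, and the part of these cells in the LFC of Slc7a11 and Slc6a9 was not tested.

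In serine and one-carbon synthesis 9 genes could be tested. Of these 5 were called higher in adult DH, 4 higher in aged DH and 3 higher in ageing. Over all genes 7.67%, 4.05% and 2.69% were called higher. Mthfd2, a mitochondrial folate enzyme, was higher by 0.73 (SE 0.086) in adult DH, 0.67 (SE 0.11) in aged DH and 0.58 (SE 0.10, limma adjusted p = 0.00636) in ageing, where its mean was 334 ± 59.1 normalized counts in aged EH against 221 ± 16.2 (SD, n = 5) in adult EH. Aldh1l2, another such enzyme, had 0.85 (SE 0.12), 0.70 (SE 0.14) and 0.61 (SE 0.13). Shmt2, which passes carbon from serine to folate in mitochondria, was called in ageing with 0.21 (SE 0.049, limma adjusted p = 0.0251), a call that was lost without aged EH rat 2 or 4 or adult EH rat 5 or 6, whereas Mthfd2 and Aldh1l2 kept theirs in all 19 other settings. Pycr1, of proline synthesis, had 0.68 (SE 0.090) in adult DH, and Psph, the last enzyme of serine synthesis, had 0.49 (SE 0.079) in aged DH.

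Of 25 other ATF4 targets listed, 20 were tested in adult DH and in ageing and 21 in aged DH, and none was called lower. Over all genes, 7.67% were called higher in adult DH, 4.05% in aged DH and 2.69% in ageing. In adult DH 5 were called, led by Trib1, a relative of Trib3 (LFC 0.85, SE 0.097), by Eif4ebp1, which encodes a repressor of cap-dependent translation (0.77, SE 0.091), and by the growth factor gene Nrg1 (0.39, SE 0.077). In aged DH 7 were called, among them the peptide gene Adm2 (1.93, SE 0.54, limma adjusted p = 0.0450, at a mean of 17.3 against 4.24 normalized counts, a call lost in 6 of 15 other settings, for a gene that reached the mean of 10 needed for the test only through its aged DH level), Eif4ebp1 (0.73, SE 0.11) and Trib1 (0.58, SE 0.11). That count fell to 2 without aged EH rat 1 or 5 or aged DH rat 3 or 5, to 3 without aged DH rat 2 and to 4 without aged EH rat 6. In ageing Eif4ebp1 (0.39, SE 0.10, limma adjusted p = 0.0371) and Herpud1, an ER membrane protein of degradation (0.16, SE 0.044, limma adjusted p = 0.0443), were called, and neither was called without aged EH rat 1 or 4 or without adult EH rat 1, 2 or 6.

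The list for ATF6 and XBP1, the other arms of the unfolded protein response, holds mainly ER chaperones, folding enzymes and degradation genes. It also holds the regulator genes Atf6, Xbp1 and Ern1. Of these, Atf6 was called in adult DH (LFC 0.14, limma adjusted p = 0.0251), and Xbp1 and Ern1 were called in no comparison. Over the whole list, 13 of 20 genes were called higher in adult DH, 6 in aged DH and 3 in ageing, and none was called lower. Over all genes 7.67%, 4.05% and 2.69% were called higher. Hspa5 (BiP), the main ER chaperone, had an LFC of 0.47 (SE 0.039) in adult DH and 0.38 (SE 0.053) in aged DH. Pdia4, a disulphide isomerase, had 0.43 (SE 0.034) and 0.33 (SE 0.048), and Calr, which encodes the calcium-binding chaperone calreticulin, had 0.40 (SE 0.032) and 0.32 (SE 0.048). In ageing the called genes were Dnajb9 (0.32, SE 0.068, limma adjusted p = 0.0141), Hspa5 (0.21, SE 0.052, limma adjusted p = 0.0322) and Hsp90b1 (0.15, SE 0.039, limma adjusted p = 0.0392). With RNA integrity as a covariate 6 genes were called in adult DH, and in ageing 1 gene was called without any of aged EH rats 2, 4 or 5 or adult EH rats 1, 2 or 4, and 5 without aged EH rat 6. The median LFC of the list was 0.15 in adult DH, 0.15 in aged DH and 0.08 in ageing. No gene of any of the 9 lists was called in the difference between the ages.

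**Figure D3:**
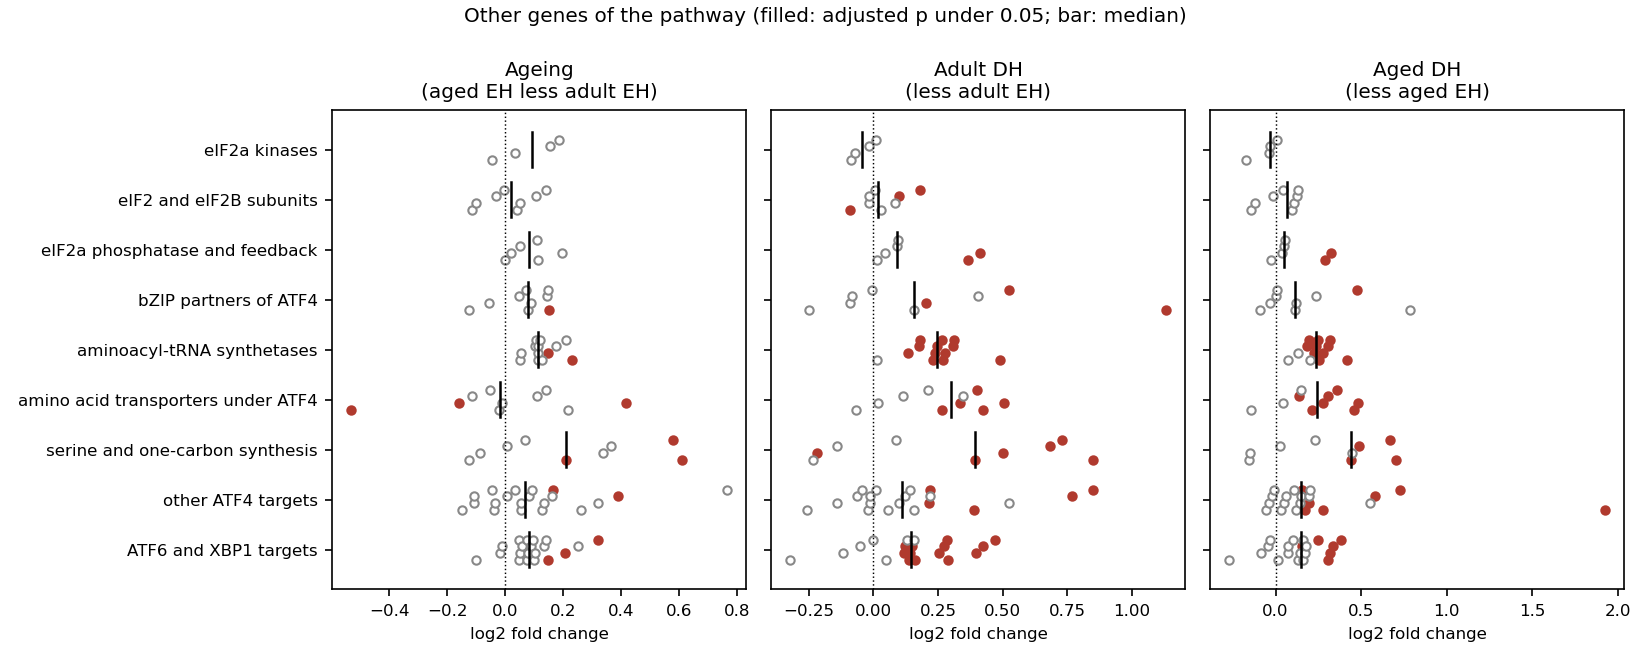
LFC (x axis, log2 scale, with a range of its own in each panel) of every gene tested in the 9 pathway lists (rows) for ageing, adult DH and aged DH, filled where the limma adjusted p is under 0.05 and with a bar at the median of the list. The kinase genes hold no filled point, and nearly all points of the aminoacyl-tRNA synthetases are filled and to the right of 0 in both DH panels.

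Markers of cell types also differed between the groups. Over all genes, 4.99% were called lower in adult DH, 3.25% in aged DH and 3.3% in ageing, beside the shares called higher of 7.67%, 4.05% and 2.69%. Of 8 markers of magnocellular neurones 5 were called higher in adult DH, 3 in aged DH and 3 in ageing, and the summed level lay between 209630 and 300729 normalized counts in adult EH and between 308599 and 408967 in adult DH. In aged rats it lay between 272966 and 390693 in EH and between 328418 and 541001 in DH. These markers were Avp, Oxt, Pdyn, Scn9a, Creb3l1, Caprin2, Nr4a1 and Cartpt. The paper describes Avp, Creb3l1 and Caprin2 as responding to dehydration, so these levels cannot be read as numbers of cells. Avp was called in adult DH (LFC 0.48, limma adjusted p = 0.0221). It was not called in aged DH (limma adjusted p = 0.502) or ageing (0.388). Oxt was called in no comparison, but in ageing it came close, with an LFC of 0.26 (SE 0.074, limma adjusted p = 0.0524). The paper reports Oxt as over-expressed with ageing. Of 9 markers of telencephalic glutamatergic neurones, a sign of tissue next to the SON, 1 was called lower in adult DH and 5 in aged DH, with sums of 12123 to 19221 in aged EH and 7247 to 10895 in aged DH. Of 6 blood markers 1 was called lower in each DH comparison, and none had an LFC above 0 in either. Their median LFC was -0.74 in adult DH and -0.59 in aged DH. Of 8 oligodendrocyte markers 1 was called lower in adult DH, where 3 had an LFC above 0 and the median was -0.15. In aged DH 2 of them were called higher, where all 8 had an LFC above 0 and the median was 0.15. In ageing 4 of 8 microglial markers were called higher, and 6 of 8 oligodendrocyte, 4 of 5 meningeal, 2 of 8 astrocyte and 1 of 5 endothelial markers lower. Of the markers only Col1a2, a meningeal collagen gene, was listed at 0 in all 20 rats. The part of these shifts in the levels of Atf4 and its targets was not tested.

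Whether a rat high in Atf4 within its group was also high in the other genes was examined over the 20 rats, with group means removed from log2 values. Pearson's r with Atf4 was 0.79 for Atf5, 0.76 for Chac1 and 0.76 for Asns, with permutation p of 0.00104, 0.0159 and 0.00122 from 100000 permutations within groups. Adjusted over the 15325 genes correlated in this way these p values were 0.388, 0.477 and 0.390, no gene passed 0.05, and 1264 genes had an unadjusted p under 0.05. Spearman's rho was 0.69 (permutation p = 0.00174) for Atf5, 0.61 (p = 0.0172) for Chac1 and 0.69 (p = 0.00146) for Asns, and r was positive in each of the 4 groups for all 3 genes. Trib3 had r = 0.55 and rho = 0.38 (permutation p = 0.0452 and 0.137), Sesn2 0.50 and 0.43 (0.0402 and 0.0881), and Ddit3 0.45 and 0.053 (0.136 and 0.852). For Atf3, Psat1 and Ddit4 r was -0.12, -0.26 and -0.37, and rho -0.066, -0.14 and -0.22 (permutation p of rho 0.803, 0.561 and 0.363).

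Aged EH rat 4 weighs heavily in these values. The rats farthest from the median of Atf4 were this one and aged DH rat 5, and without both r was 0.66 for Atf5, 0.61 for Asns and 0.53 for Chac1, 0.31 for Trib3, 0.27 for Sesn2 and -0.19 for Ddit3. The relation of Ddit3 with Atf4 thus rests on those rats. Without aged EH rat 4 alone r was 0.61, 0.56 and 0.45 for Atf5, Asns and Chac1 and 0.019 for Ddit3. Among genes with a mean of at least 50 that are not of the 10, the 5 with the highest r to Atf4 over the 20 rats were Aars (0.87), Nars1 (0.85), Mars1 (0.83) and Sars1 (0.83), all aminoacyl-tRNA synthetases, and Rpn2 (0.81), a subunit of the ER enzyme that adds sugars to new proteins. Their adjusted p over all genes was between 0.388 and 0.466. Their r without aged EH rat 4 was not computed, so how far this ranking rests on that rat is not known. Each of these 5 genes was called higher in adult DH and in aged DH, with LFCs between 0.22 and 0.35, and Rpn2 was also called in ageing (LFC 0.19, limma adjusted p = 0.0207).

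**Figure D4:**
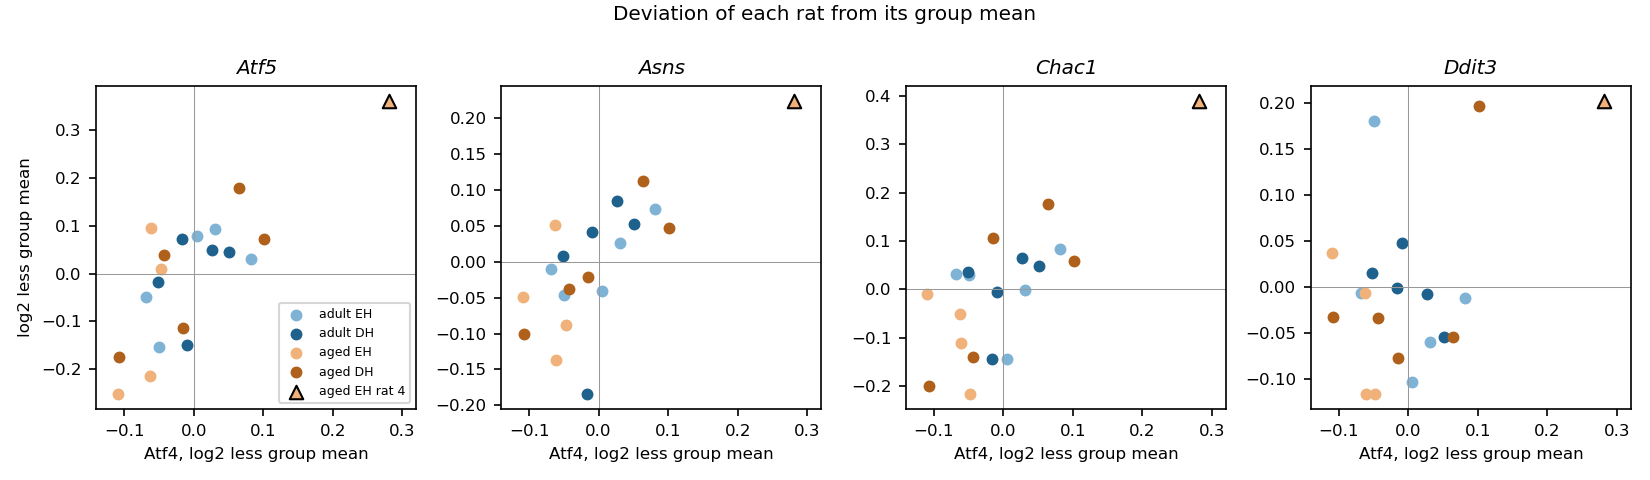
Deviation of each of the 20 rats from its group mean (log2 scale) in Atf4 (x axis) and in Atf5, Asns, Chac1 and Ddit3 (y axis), coloured by group, with aged EH rat 4 as a triangle. That rat lies at 0.28 in Atf4 and at the upper right of each panel, and the other rats follow an upward trend in the first 3 panels and none in that of Ddit3.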

How the data were processed

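Poly(A) RNA of rat SON punches from 20 rats was sequenced by the authors as stranded paired-end libraries. After trimming, the authors used STAR with genome Rn6 and then featureCounts for gene counts. DESeq2 size factors scaled these, and the signal in the deposited tables is therefore a normalized read count. Aligner and counter versions, not given in the sources used here, remain unknown. The tables also hold the authors' group means, log2 fold changes, scores and p-values, which were not used. All 30 columns of single rats were used.

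Genes with a mean of at least 10 were tested with limma 3.58.1 in R 4.3.3, two-sided, on log2 of the normalized count plus 1, each comparison within its own table, with a Benjamini-Hochberg adjusted threshold of 0.05. The difference between the ages used each rat from the DH table of its age. In each library 100% of values were, to within 0.1 read, a whole number of reads times one scaling step, so reads were recovered. edgeR 4.0.16 on those reads called 1939 genes in adult DH, and DESeq2 1.42.0 called 2245. The fit was tested on simulated data. The 10 genes and the lists were chosen with earlier results of these data known. Within the lists, up to 3 called genes with the highest and up to 3 with the lowest LFC are named per comparison, or, where none was called, the 2 with the largest LFC in size, and the 5 genes most like Atf4 are named by Pearson's r. By the study's methods rats were housed in groups, and whole cages were assigned at random to EH or DH. The labels do not say which rats shared a cage, and every test here treats the rats as independent. Replicate numbers do not pair rats. A result for a gene of the serine and one-carbon list is not reported here.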

Additional observations from a re-analysis of the deposited data

Results flagged for a closer look

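In aged EH rats Atf4 of rat 4 stood at 7824 normalized counts in the ageing table and at 7822 in the aged DH table, which hold the same library, and the gap to the next rat was a larger part of the range of the group than Dixon's critical value of 0.71 for 5 rats. In aged DH rats Ddit3 of rat 5 stood at 1221 normalized counts, with the next rat at 1042, and passed the same limit. These were 3 of 60 combinations of gene, table and group examined, and chance flags about 1 in 20. Without aged EH rat 4 the LFC of Atf4 in ageing was 0.20 instead of 0.27.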

How the results depend on the processing

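The 6 genes called higher in adult DH numbered 5 to 7 in every other setting, and those of aged DH 5 to 7 also, with Trib3 the call most often lost. In ageing the count of 5 was 1 to 4 when a rat was left out, with Asns alone left without adult EH rat 4, and 2 without adult EH rat 2 or 5. It was 4 to 5 in the other settings, edgeR included. No gene of the 10 was called for the difference between the ages in any of 29 settings. The number of the 9 correlations with Atf4 that passed 0.05 when adjusted over the 9 alone, which is not independent evidence, was 3, and 0 to 4 when a rat was left out, with 0 without aged EH rat 4. Some LFCs close to 0 changed sign. Those of Ddit4 in ageing reached 0.0021 in edgeR, those of Atf3 in adult DH 0.0029 and of Psat1 0.018 with RNA integrity as a covariate, and Psat1 0.054 with the replicate block. When single rats were left out they ran from -0.16 to 0.039 (Atf3) and -0.086 to 0.053 (Ddit4) in ageing, from -0.21 to 0.0047 (Atf3) and -0.056 to 0.026 (Psat1) in adult DH, and from -0.21 to 0.023 (Atf3), -0.082 to 0.020 (Asns) and -0.026 to 0.074 (Ddit3) in the difference between the ages. The correlation of Psat1 with Atf4 ran from -0.32 to 0.041. The cause of these changes was not tested. Over all genes, calls in adult DH fell from 1934 to 1005 with RNA integrity as a covariate, in ageing from 921 to 599 without aged EH rat 4 and 594 without adult EH rat 5, and in aged DH from 1119 to 679 without aged EH rat 5 and 678 without aged DH rat 5. By the study's supplement all adult EH rats had the same RNA integrity, so in adult DH this covariate overlaps in part with the group. The part of RNA quality in that fall was not tested. Same-numbered rats did not deviate together (correlations of -0.083 to 0.16, over 0.1 in 1 pair of each comparison), so the numbers do not pair rats. With the replicate block 4 of the 10 genes were called in ageing, 5 in adult DH, 6 in aged DH and 0 in the difference between the ages, and 824, 987, 653 and 1 over all genes. With library totals made equal, the calls over all genes in adult DH were 890 higher and 1161 lower, against 1172 and 762, in ageing 302 and 747, against 414 and 507, and in aged DH 534 and 594, against 621 and 498. Of 68 values of named pathway genes, none changed direction, 132 of their recomputed values lost the call, 9 gained one and 1173 did neither. The edgeR tests of ageing, aged DH and the difference, and the joint scaling of 20 libraries, were chosen after seeing the data. Counts near those of Trib3 and Atf3 limit what can be detected for these genes.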
